A study of Mus musculus with 6 samples.

Results

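The genes described here are 10 that mark mesothelial cells: Msln, Wt1, Upk3b, Upk1b, Lrrn4, Bnc1, Gpm6a, Rspo1, Nkain4 and Cdh3. They were chosen by name, with earlier results of these data known. Each was followed through the non-control array probes whose accession maps to it. Each of the 10 had exactly 1 probe, and all 10 are among 12470 named genes with a tested probe, out of 20018 named genes on the array. They were measured in cultured lung fibroblasts of Mmp19 knockout (Mmp19 KO) mice and of wild-type (WT) mice, with 3 one-colour Agilent arrays per genotype. Mmp19 is a secreted matrix metalloproteinase, and the study set out to find its expression signature in lung fibroblasts. Mice of both genotypes were labelled female and aged 11 weeks, and both had received 0.08 units of bleomycin into the trachea, a drug that injures the lung and leads to fibrosis, so no untreated lungs enter the comparison. Fibroblasts were isolated on day 21 and the cultures were incubated for 72 hours. The series text describes the 3 samples of a genotype as independent experiments, and whether a culture came from 1 mouse or from pooled mice is not stated in the labels. The labels give neither the strain nor how the Mmp19 allele was made.

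Mesothelial cells form the thin sheet that covers the lung as visceral pleura and lines the pleural, pericardial and peritoneal cavities. They are epithelial in shape, joined by junctions and covered with microvilli, yet they arise from mesoderm and carry vimentin as well as keratins. In development the Wt1-expressing mesothelium gives rise to stromal cells of several organs, and after injury mesothelial cells can lose their epithelial features in culture and in tissue. The 10 genes fall into 3 roles. Msln, Upk3b, Upk1b, Lrrn4, Gpm6a, Nkain4 and Cdh3 encode membrane or cell surface proteins, Wt1 and Bnc1 encode zinc finger transcription factors, and Rspo1 encodes a secreted ligand.

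The genes lie on chromosomes 2 (Wt1, Lrrn4 and Nkain4), 4 (Rspo1), 5 (Upk3b), 7 (Bnc1), 8 (Gpm6a and Cdh3), 16 (Upk1b) and 17 (Msln). Promoter windows from RefSeq (assembly GRCm38.p6), which run from 250 bases before to 50 after a gene's start, were found for 5 of the 10 genes. They are shown because these genes were measured together in 1 comparison, and each is written 5′ to 3′ on its gene's strand with the matches to 4 fixed motifs in capitals. The motifs, searched on both strands, were GTGGGAG, a core reported for Wt1; GGGCGG, the GC box; GGAATG, the core bound by TEAD factors; and TATAAA, the TATA box. No matches overlapped in these windows. The windows are Bnc1 at chr7:81992250-81992549 on the minus strand, Rspo1 at chr4:124986180-124986479 on the plus strand, Upk3b at chr5:136038246-136038545 on the plus strand, Lrrn4 at chr2:132880813-132881112 on the minus strand, and the first of Gpm6a's windows at chr8:54779184-54779483 on the plus strand.
Bnc1: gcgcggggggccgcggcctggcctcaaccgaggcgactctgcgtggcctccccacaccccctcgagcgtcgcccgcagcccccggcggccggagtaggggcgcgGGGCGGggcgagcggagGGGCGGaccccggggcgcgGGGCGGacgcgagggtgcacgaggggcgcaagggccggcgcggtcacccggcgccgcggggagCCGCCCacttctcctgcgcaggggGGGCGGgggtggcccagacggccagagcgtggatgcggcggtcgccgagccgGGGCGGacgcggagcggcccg
Rspo1: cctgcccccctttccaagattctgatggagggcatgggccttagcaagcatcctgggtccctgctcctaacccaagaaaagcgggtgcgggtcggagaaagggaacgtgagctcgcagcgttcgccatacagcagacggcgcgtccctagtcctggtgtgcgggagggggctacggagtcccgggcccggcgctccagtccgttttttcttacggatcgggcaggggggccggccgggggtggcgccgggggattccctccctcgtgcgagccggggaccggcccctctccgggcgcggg
Upk3b: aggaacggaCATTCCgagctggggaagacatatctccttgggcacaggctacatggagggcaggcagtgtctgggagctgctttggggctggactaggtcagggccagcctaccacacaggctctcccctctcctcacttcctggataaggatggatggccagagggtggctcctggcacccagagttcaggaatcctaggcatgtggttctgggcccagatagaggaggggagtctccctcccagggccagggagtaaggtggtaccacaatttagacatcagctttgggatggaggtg
Lrrn4: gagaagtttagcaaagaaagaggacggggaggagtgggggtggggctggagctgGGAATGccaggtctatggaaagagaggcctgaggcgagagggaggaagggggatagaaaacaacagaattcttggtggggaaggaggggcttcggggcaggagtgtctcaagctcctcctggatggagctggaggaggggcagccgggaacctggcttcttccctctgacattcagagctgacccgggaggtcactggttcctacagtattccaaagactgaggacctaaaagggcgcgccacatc
Gpm6a: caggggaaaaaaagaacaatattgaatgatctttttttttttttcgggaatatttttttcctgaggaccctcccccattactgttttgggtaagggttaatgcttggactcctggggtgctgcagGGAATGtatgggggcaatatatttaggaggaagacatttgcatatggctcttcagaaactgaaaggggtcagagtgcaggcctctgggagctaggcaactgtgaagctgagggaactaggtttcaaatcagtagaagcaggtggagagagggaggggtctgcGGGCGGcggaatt

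The windows were unlike each other. Bnc1's was 83.3% G and C with 50 CpG dinucleotides and 6 GC box matches, and Rspo1's was 69.0% G and C with 29 CpG and no match to any of the 4 motifs. Upk3b's window had 58.7% G and C and 2 CpG, Lrrn4's 58.0% and 7 CpG, and Gpm6a's 47.0% and 4 CpG, beside a median of 52.7% and 7 CpG over 32851 windows of the same length. GGAATG was found in 3 of the 6 windows of these genes (Upk3b, Lrrn4 and the first of Gpm6a) and in 14.7% of all windows. GGGCGG was found in 2 (Bnc1 and the first of Gpm6a) and in 35.7% of all windows. TATAAA was found in 1, a second Gpm6a window at chr8:54954478-54954777 on the plus strand, and in 13.6% of all windows. GTGGGAG was found in 0 of the 6 and in 9.7% of all windows. A match is a string of letters and not a shown binding site, and 6 windows are too few to compare shares.

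Levels below are scaled log2 signals: the log2 of the background-subtracted spot signal minus the array's own 75th percentile over all probes, so 0 is the signal of a probe at that percentile. Each probe has its own response, so levels are compared between arrays and not between genes. A signal is called well above background where the scanner software flagged it so. Arrays of the same replicate number lay on the same slide, 1 knockout and 1 wild-type array on each of 3 slides. Between 41.9% and 51.5% of probes were well above background on the Mmp19 KO arrays and between 43.0% and 53.4% on the WT arrays, and the 75th percentile signal was 138 to 328 units on the Mmp19 KO arrays and 190 to 290 units on the WT arrays. Mmp19 itself was well above background on 0 of 3 Mmp19 KO arrays and on 3 of 3 WT arrays, and was at least 5.33-fold lower in Mmp19 KO (limma, adjusted p = 0.016), where the bound sets the lowest signal well above background on each Mmp19 KO array against the WT mean. Although every sample was labelled female, Xist was well above background on 3 of 3 Mmp19 KO arrays and on 0 of 3 WT arrays, at least 7.41-fold higher in Mmp19 KO (adjusted p = 0.0032), and the Y-linked Eif2s3y was well above background on all 6. Eif2s3y read 2.19, -1.77 and 0.67 on the Mmp19 KO arrays and 2.92, 4.18 and 3.62 on the WT arrays (log2 change -3.21 ± 0.94 SE, adjusted p = 0.11). These differences lie along genotype and cannot be told apart from it in what follows.

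All 10 mesothelial genes had a higher mean in Mmp19 KO cultures, and 6 of them rose past the threshold of an adjusted p of 0.05 (limma, Benjamini-Hochberg over all 24214 probes tested). The 6 were Msln, Wt1, Upk3b, Lrrn4, Bnc1 and Rspo1, while Gpm6a, Cdh3, Nkain4 and Upk1b did not pass. Of all 12470 genes 3.30% were called higher in Mmp19 KO, 1.49% lower and 4.80% in either direction, and of all probes 4.64%. The median log2 change of the 10 genes was 3.98, beside 0.08 over all genes, and the changes ran from 3.13 for Nkain4 to 5.43 for Gpm6a. A probe entered the test when at least 1 genotype had it well above background on each of its arrays. Of the 10, 6 entered only through the Mmp19 KO arrays, and all were chosen with earlier results of these data known. These counts therefore describe the genes and are not offered as support. In bulk cultures a larger share of cells of a type and more RNA per cell cannot be told apart.

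**Figure D1:**
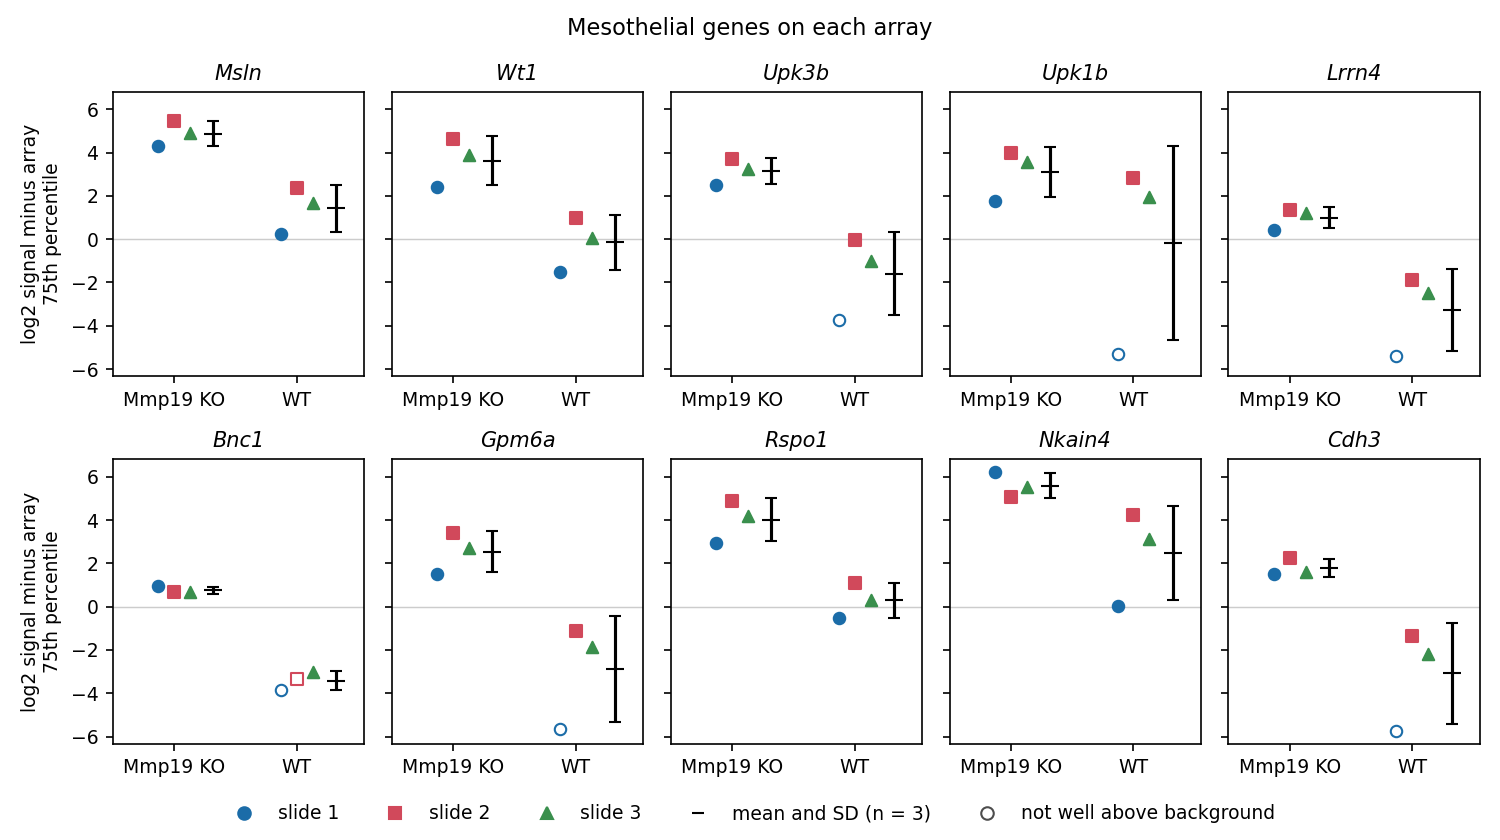
Scaled log2 signal (vertical axis) of each of the 10 mesothelial genes on the 3 Mmp19 KO arrays and the 3 WT arrays, with symbols by slide and open symbols where the probe was not well above background. Bars give the mean and SD of 3 arrays, and in 9 panels, all but that of Upk1b, every Mmp19 KO point lies above every WT point.

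The calls rested on few arrays. Without Mmp19 KO replicate 1, 2 or 3 the number of the 10 genes past the threshold was 2, 1 and 1, and without WT replicate 1, 2 or 3 it was 6, 8 and 1. With both arrays of slide 3 left out it was 0, although 8 of the 10 still had an unadjusted p under 0.05 in limma. The changes themselves moved less, with a median of 3.25 to 4.57 when 1 array was left out. Bnc1 was past the threshold in each of these 6 fits. The number of all probes past the threshold moved as well, from 1124 with all arrays. It was 469, 487 and 108 without Mmp19 KO replicates 1, 2 and 3, and 449, 1913 and 114 without WT replicates 1, 2 and 3. Without slide 3 it was 0. These fits tested 24239 to 27006 probes.

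Among the surface proteins, Msln (probe A_51_P146560) encodes mesothelin, a glycoprotein held to the membrane by a lipid anchor. It read 4.32, 5.43 and 4.88 on the Mmp19 KO arrays and 0.25, 2.37 and 1.68 on the WT arrays. The groups did not overlap, the lowest Mmp19 KO array lying 1.94 above the highest WT array, and the probe was well above background on all 6 arrays. Msln rose by 3.44 ± 0.56 (SE, n = 3 each) on the log2 scale, which is 10.9-fold (adjusted p = 0.025, and 0.029 with slide as a block). Of 19 alternative settings 12 kept it past the threshold, with adjusted p from 0.015 to 0.396. It missed the threshold without any 1 of the Mmp19 KO arrays (0.052, 0.073 and 0.119) and without WT replicate 3 (0.097).

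Upk3b (probe A_52_P114889) and Upk1b (probe A_51_P113195) encode uroplakins, membrane proteins named for the plaques of the bladder's urothelium; Upk1b belongs to the tetraspanins. Upk3b read 2.52, 3.68 and 3.25 on the Mmp19 KO arrays and -3.75, -0.05 and -1.0 on the WT arrays, where it was well above background on 2 of 3. No WT array came within 2.56 of the lowest Mmp19 KO array. Upk3b rose by 4.75 ± 0.90 (adjusted p = 0.038, and 0.045 with slide as a block). Without 1 array the adjusted p lay above the threshold in 4 of 6 fits, at 0.077, 0.099 and 0.157 without Mmp19 KO replicates 1, 2 and 3 and at 0.112 without WT replicate 3. Over 18 settings it ran from 0.0083 to 0.430, with 12 past the threshold.

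Upk1b was the gene that separated the genotypes least. It read 1.78, 3.997 and 3.54 on the Mmp19 KO arrays and -5.32, 2.83 and 1.94 on the WT arrays. WT replicate 1 was not well above background and stood far below the other 2, which both lay above Mmp19 KO replicate 1, so the groups overlapped. The change was 3.29 ± 2.04 (adjusted p = 0.40, and 0.24 with slide as a block), and it was 0.72 without WT replicate 1. It passed the threshold under 0 of 18 settings, with adjusted p from 0.207 to 0.735.

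Lrrn4, Gpm6a and Cdh3 shared a pattern of clear signal on every Mmp19 KO array and a weaker one in WT that fell below the background flag on replicate 1. Upk3b and Upk1b had the same flags on each array. Lrrn4 (probe A_52_P460836), a membrane protein with leucine-rich repeats, read 0.44, 1.34 and 1.21 on the Mmp19 KO arrays and -5.41, -1.88 and -2.50 on the WT arrays. It was well above background on 2 of 3 WT arrays, and the lowest Mmp19 KO array lay 2.32 above the highest WT array. Lrrn4 rose by 4.26 ± 0.87 with an adjusted p of 0.045, and missed the threshold at 0.053 with slide as a block. Over 18 settings, with adjusted p from 0.0068 to 0.442, 6 kept the call, and it was lost without Mmp19 KO replicate 1, 2 or 3 (0.095, 0.116 and 0.181) and without WT replicate 3 (0.119).

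Gpm6a (probe A_52_P566681) encodes a proteolipid-type membrane glycoprotein best known from neurons. It read 1.52, 3.38 and 2.73 on the Mmp19 KO arrays and -5.67, -1.13 and -1.86 on the WT arrays. Again 2 of 3 WT arrays were well above background, WT replicate 1 was not, and the groups did not overlap. The change of 5.43 ± 1.16 gave an adjusted p of 0.051, just short of the threshold, and of 0.045 with slide as a block. WT replicate 1 read far below the other WT arrays, and without it the change was 4.04 with an adjusted p of 0.041. Over 18 settings the adjusted p ran from 0.018 to 0.451 and 6 were past the threshold. With normexp the change was 3.48, below that of Upk3b (3.66) and Rspo1 (3.51).

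Cdh3 (probe A_66_P113868) encodes P-cadherin, a calcium-dependent adhesion protein. It read 1.49, 2.27 and 1.61 on the Mmp19 KO arrays and -5.73, -1.34 and -2.19 on the WT arrays, with 2 of 3 WT arrays well above background. The gap between the groups was 2.83, and the change of 4.88 ± 1.06 had an adjusted p of 0.053 (0.072 with slide as a block). Without WT replicate 1 the change was 3.55 and the adjusted p 0.025, and 5 of 18 settings passed, with adjusted p from 0.0053 to 0.447. With normexp, which raises signals near background, the change was 3.02.

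Nkain4 (probe A_55_P2106901) belongs to a family of membrane proteins that interact with the sodium-potassium pump. Like Bnc1 it was brightest on replicate 1 among the Mmp19 KO arrays, with 6.20, 5.05 and 5.53 on the Mmp19 KO arrays and 0.03, 4.21 and 3.13 on the WT arrays. All 6 arrays were well above background. The lowest Mmp19 KO array lay 0.84 above the highest WT array, the smallest gap among the 9 genes without overlap. The change was 3.13 ± 1.003 (adjusted p = 0.14, and 0.20 with slide as a block), and it was 1.92 without WT replicate 1. It passed the threshold under 0 of 19 settings, with adjusted p from 0.052 to 0.583.

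Of the transcription factors, Bnc1 (basonuclin, probe A_52_P676819) had the tightest values. It read 0.95, 0.65 and 0.69 on the Mmp19 KO arrays and -3.86, -3.35 and -3.03 on the WT arrays. The probe was well above background on 1 of 3 WT arrays, so the WT level is close to the limit of the measurement. The groups lay 3.68 apart at their nearest, the widest gap of the 10. Bnc1 rose by 4.18 ± 0.27 (adjusted p = 0.0026, and 0.027 with slide as a block), and it stayed past the threshold in 17 of 18 settings. The exception was the fit without slide 3 (0.203), and the smallest change was 2.34, with the normexp background correction that raises signals near background.

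Wt1 (probe A_55_P1953143) is the Wilms tumour zinc finger factor that marks mesothelium from the embryo onward. It read 2.40, 4.62 and 3.87 on the Mmp19 KO arrays and -1.50, 0.995 and 0.06 on the WT arrays, well above background on all 6. The groups lay 1.40 apart at their nearest. Both groups ranged over more than 2 log2 units, and Wt1 rose by 3.78 ± 0.76 with an adjusted p of 0.044 (0.025 with slide as a block). Over 19 settings, with adjusted p from 0.025 to 0.477, 7 kept the call, and it was lost with quantile scaling, with the authors' deposited log2 values (0.055) and without any 1 array other than WT replicate 2 (0.051 to 0.179).

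Rspo1 (probe A_51_P142421), the ligand, is an R-spondin, a family that raises Wnt signalling at the receptor by holding back its removal from the membrane. It read 2.93, 4.90 and 4.20 on the Mmp19 KO arrays and -0.52, 1.07 and 0.32 on the WT arrays. All 6 were well above background and the groups lay 1.86 apart. Rspo1 rose by 3.72 ± 0.59, 13.2-fold (adjusted p = 0.024, and 0.025 with slide as a block), and kept the call in 13 of 19 settings, with adjusted p from 0.015 to 0.402. It was lost without Mmp19 KO replicate 2 or 3 (0.059 and 0.115) and without WT replicate 1 or 3 (0.065 and 0.098).

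Each slide held 1 array of each genotype, so every gene gave 3 differences, Mmp19 KO minus WT, each made within a slide. All 30 differences of the 10 genes were above 0. Among all genes 30.6% were higher in Mmp19 KO on all 3 slides, and 21.2% had every Mmp19 KO array above every WT array, as 9 of the 10 did. Wt1 and Rspo1 had nearly the same difference on each slide: 3.90, 3.62 and 3.81 for Wt1 and 3.46, 3.83 and 3.88 for Rspo1. Their levels moved up and down between slides in both genotypes alike, and once slide entered the fit as a block the standard error was 0.19 for Wt1 and 0.21 for Rspo1, against 0.76 and 0.59 without it. The other 8 genes had their largest difference on slide 1, as did Wt1. For Upk1b the differences were 7.10, 1.17 and 1.60, for Nkain4 6.17, 0.84 and 2.40, and for Cdh3 7.22, 3.61 and 3.80. With slide as a block 6 of the 10 passed, 5 of them shared with the fit without it; Gpm6a was gained and Lrrn4 lost, where 1.17% of all genes were called higher.

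**Figure D2:**
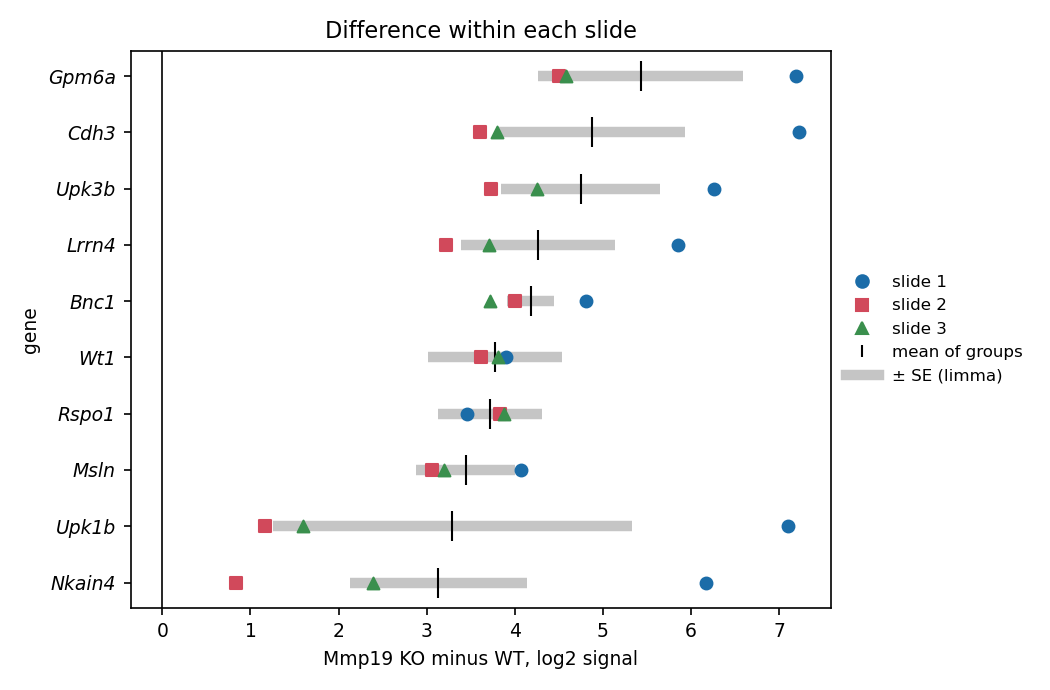
Difference in scaled log2 signal, Mmp19 KO minus WT (horizontal axis), within each of 3 slides for the 10 genes, ordered by their change. The black tick is the change between group means and the grey bar ± 1 SE of the limma fit; all 30 points lie right of 0, and slide 1 lies farthest right for 9 genes, Rspo1 being the exception.

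The 10 genes varied among arrays of 1 genotype more than most genes did. The pooled SD within genotypes was above the 90th percentile of all genes for 9 of them, the exception being Bnc1 at the 48th percentile, and the median over all genes was 0.33. SDs ran from 0.16 to 1.17 over the Mmp19 KO arrays and from 0.42 to 4.47 over the WT arrays, and were larger in WT for 9 of the 10, Rspo1 being the exception. For 6 genes the WT values include signals below the background flag, which widen the spread on the log2 scale. Raised to the lowest flagged signal, they gave an SE of 0.56 for Cdh3 (from 1.06), 0.71 for Gpm6a (1.16) and 0.47 for Lrrn4 (0.87). The 4 genes flagged on all 6 arrays were above the 90th percentile too. The order of the arrays was shared. Among the Mmp19 KO arrays 8 genes were highest on replicate 2, then 3, then 1, an order that 39.8% of all genes had; Bnc1 and Nkain4 ran 1, 3, 2. Among the WT arrays 9 genes ran 2, 3, 1, as did 22% of all genes, and all 10 were lowest on replicate 1, as were 33.6% of all genes. All 10 were well above background on each Mmp19 KO array, against 4 (Msln, Wt1, Rspo1 and Nkain4) on WT replicate 1, 9 on WT replicate 2 and 10 on WT replicate 3.

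Other measures shared that order in 1 or both genotypes, and their part in it was not tested. The 75th percentile signal of the Mmp19 KO arrays was 138, 328 and 246 units, highest on replicate 2 and lowest on 1 as for 8 of the genes, while that of the WT arrays was 190, 212 and 290 units, highest on replicate 3. The summed level of 9 smooth muscle and pericyte markers, in multiples of the array's 75th percentile signal, was 904, 728 and 753 on the Mmp19 KO arrays and 175, 1077 and 632 on the WT arrays, in the order 1, 3, 2 in Mmp19 KO and in the order 2, 3, 1 of the mesothelial genes in WT alone. The sum of the 10 mesothelial genes was 124, 179 and 143 on the Mmp19 KO arrays and 3.49, 37.1 and 19.4 on the WT arrays. That of 12 fibroblast markers was 2699, 2588 and 2600 on the Mmp19 KO arrays and 1297, 2451 and 1958 on the WT arrays. For 12 genes of the change of mesothelial cells to a mesenchymal form, some of them in both lists, it was 1127.2, 1208.3 and 1127.3, and in WT 468.7, 1425.3 and 1020.4. Among the WT arrays the sums of the gene family, Wnt, Wt1 target, macrophage and endothelial lists below were highest on replicate 1. Mmp19 KO replicate 1 was higher still for the gene family (248 against 209), Wnt (81.5 against 77.3) and macrophage lists (109 against 67.0). Over all probes tested the Mmp19 KO arrays correlated with each other at 0.958 to 0.986 and the WT arrays at 0.939 to 0.984, lowest between WT replicates 1 and 2. Arrays of different genotypes correlated at 0.921 to 0.963, so the ranges overlapped.

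To set the genotype difference aside, each gene's mean in its genotype was subtracted and the deviations were correlated over the 6 arrays. Over the 45 pairs Pearson's r of the deviations ran from 0.096 to 0.998 with a median of 0.87, 21 pairs were above 0.9 and 0 were below 0. Upk3b, Lrrn4, Gpm6a, Cdh3 and Upk1b followed each other most closely, with Lrrn4 and Upk1b as the closest pair. None of these genes was well above background on WT replicate 1. There they read from -3.75 for Upk3b to -5.73 for Cdh3, below that array's lowest flagged level of -3.59. Their close r therefore leans on signals at the floor of the measurement. Wt1 and Rspo1 were each other's closest partners at 0.98. Bnc1 stood apart with a median of 0.62 over its pairs and 0.10 with Rspo1. Without subtraction of the means r ran from 0.595 to 0.998 with a median of 0.94. All pairs share the same 6 arrays and their scaling, and WT replicate 1 held the largest deviation in 9 of the 10 genes, so these values are a description only.

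**Figure D3:**
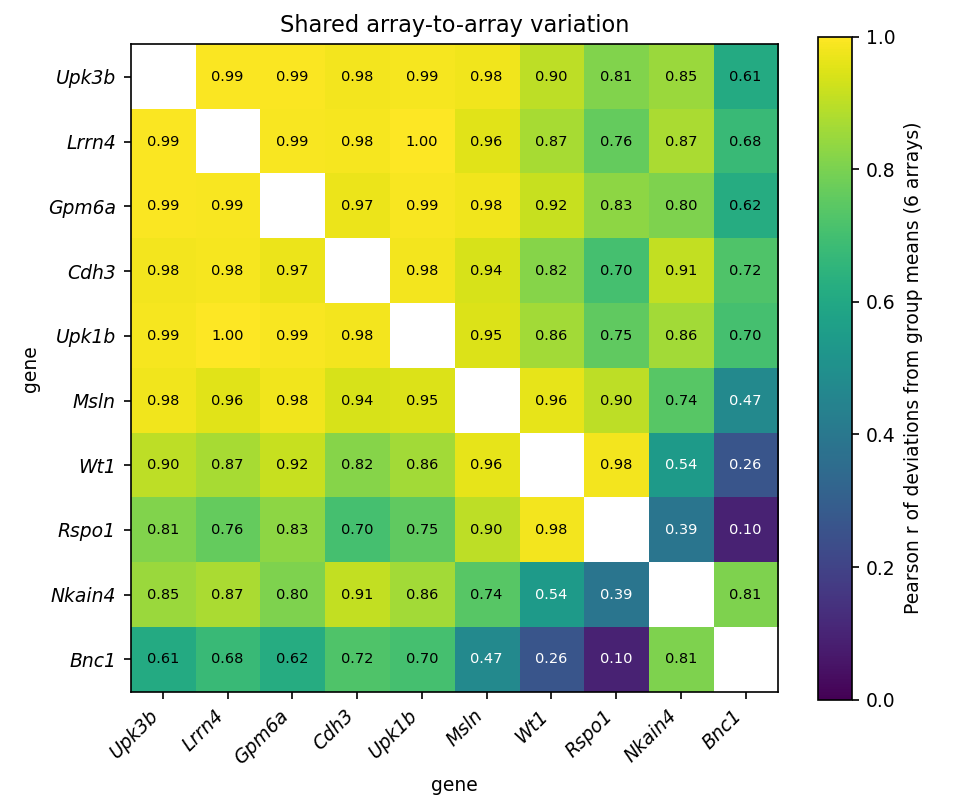
Pearson correlation of deviations from the genotype means over 6 arrays for each pair of the 10 genes, with both axes listing genes and the colour scale running from 0 to 1. Upk3b, Lrrn4, Gpm6a, Cdh3 and Upk1b form a block of high values, and Bnc1 has the lowest values, down to 0.10 with Rspo1. The genes of that block were not well above background on WT replicate 1.

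The genes whose pattern was most like that of the 10 were found by Pearson's r over the 6 arrays with the mean z-score of the 10, among 12066 genes. The 8 closest were Smpd3 (r = 0.998), Aldh1a7 (0.998), Pbxip1 (0.997), Dnaaf3 (0.997), Cdo1 (0.996), Crb2 (0.995), Anxa3 (0.995) and F2r (0.995). Smpd3, a sphingomyelinase, rose by 4.97 ± 1.05 (adjusted p = 0.049), with 1.43, 3.18 and 2.54 on the Mmp19 KO arrays and -4.99, -0.75 and -2.04 on the WT arrays. The other 7 did not pass the threshold, with changes from 0.83 for Pbxip1 to 3.73 for Crb2. Of the 10 themselves Upk3b, Lrrn4, Gpm6a and Cdh3 held places 1, 2, 3 and 8 among those 12066 genes, while Upk1b stood at place 1111; each is part of the mean it was set against, which by construction lifts its place.

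A wider list of 30 genes reported in mesothelium, had 23 with a tested probe. Of the 23, 3 rose, 0 fell and 18 had a positive change, with a median of 1.27. Of all genes 3.30% were called higher and 1.49% lower, with a median change of 0.08. Aldh1a1, a retinaldehyde dehydrogenase, rose by 2.63 ± 0.46 (adjusted p = 0.030). Fgf9, a growth factor of embryonic pleura, rose by 2.43 ± 0.34 (adjusted p = 0.018) and was well above background on 1 of 3 WT arrays. With slide as a block 4 rose, Krt18 and Plxna4 being gained and Ezr lost, where 1.17% of all genes were called higher. Ezr, which encodes ezrin of the microvilli, rose by 1.77 ± 0.36 (adjusted p = 0.043, and 0.11 with slide as a block). Among genes named after their values were seen, the keratin gene Krt18 had a change of 2.55 ± 0.70 (adjusted p = 0.094, and 0.047 with slide as a block), Krt8 one of -0.02 ± 0.24 and Krt19 one of -0.28 ± 0.42. Pdpn, podoplanin, had a change of -0.45 ± 0.54 and a high signal on all 6 arrays. Calb2, which encodes the mesothelial marker calretinin, and Sbspon were well above background on no array, and Muc16 had no named probe. The summed level of the 29 genes with a probe was 168 to 304 on the Mmp19 KO arrays and 120 to 133 on the WT arrays.

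Of 22 relatives from the same gene families 15 had a tested probe, 1 rose and 0 fell, and the median change was 0.41. With 3.30% of all genes called higher, 1 of 15 does not set them apart. Rspo3, an R-spondin like Rspo1, read 6.54, 5.83 and 5.96 on the Mmp19 KO arrays and 4.36, 4.59 and 4.57 on the WT arrays, and rose by 1.60 ± 0.25 (adjusted p = 0.022, and 0.074 with slide as a block). Rspo2, like the next 8 genes named after the values were seen, had a change of 0.63 ± 0.75. Among the other families Upk1a had a change of 0.71 ± 0.22 (adjusted p = 0.13), Lrrn2 of 3.24 ± 0.96 (adjusted p = 0.12), Lrrn3 of -1.36 ± 0.44 (adjusted p = 0.14, with every Mmp19 KO array below every WT array), Bnc2 of 0.44 ± 0.24, Gpm6b of -0.87 ± 1.09, Nkain1 of -0.17 ± 0.20, Cdh1 of -0.17 ± 0.29 and Cdh2 of -0.73 ± 0.32. Upk3a, Lrrn1, Nkain2 and Rspo4 were well above background on no array. The count takes the brightest tested probe of a gene, and the probes of Cdh11, also named after its values were seen, differed. Its brighter probe had a change of 0.15 ± 0.24. The dimmer probe rose by 1.44 ± 0.26 (limma, adjusted p = 0.031, and 0.092 with slide as a block).

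Of 15 receptors and response genes of the Wnt pathway 7 had a tested probe, and 0 passed in limma, where 2 (Lrp6 and Ctnnb1) had an unadjusted p under 0.05; with 4.80% of all genes called in either direction, 0 of 7 does not set them apart. The co-receptor gene Lrp6 had a change of -0.92 ± 0.28 (adjusted p = 0.13) and Ctnnb1, beta-catenin, of 0.55 ± 0.18 (adjusted p = 0.15). The response genes Axin2 and Lef1 and the R-spondin receptor gene Lgr6 were well above background on no array. The response genes Nkd1, Nkd2 and Notum and the R-spondin receptor gene Lgr4 were well above background on every array by their brightest probe. Named after their values were seen, they had changes from -0.36 ± 0.23 for Lgr4 to 0.45 ± 0.34 for Nkd2. Of 18 cofactors and reported targets of Wt1 12 had a tested probe, 1 rose and 0 fell, and the median change was -0.04. In limma 4 (Wtap, Pawr, Spry1 and Sox9) had an unadjusted p under 0.05. With 3.30% of all genes called higher, 1 of 12 does not set them apart. The riser was Spry1, an inhibitor of receptor tyrosine kinase signalling, which rose by 1.51 ± 0.27 (adjusted p = 0.031, and 0.072 with slide as a block). Sox9, a transcription factor gene named after its values were seen, had a change of -2.21 ± 0.60 (adjusted p = 0.094) with groups that did not overlap. Of 12 genes of the change of mesothelial cells to a mesenchymal form 0 passed in limma and 1 (Zeb1, with a change of 0.51 ± 0.20, adjusted p = 0.21) had an unadjusted p under 0.05, with a median change of -0.06.

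Markers of other cell types were read beside these values, and their part in them was not tested. Their counts stand beside 3.30% of all genes called higher and 1.49% lower, and 1.17% called higher with slide as a block. All 12 fibroblast markers had a tested probe. Their summed level was 2588 to 2699 on the Mmp19 KO arrays and 1297 to 2451 on the WT arrays. The median change was 1.01, and 10 of the 12 had a positive change. In 6 every Mmp19 KO array lay above every WT array, as in 21.2% of all genes. In limma 6 had an unadjusted p under 0.05, as had 5117 of all 24214 probes tested. The collagen genes Col1a1 and Col1a2 rose by 1.47 ± 0.26 (adjusted p = 0.031) and 1.25 ± 0.25 (adjusted p = 0.0415), and 0 fell. With slide as a block neither collagen gene passed (0.084 for Col1a1 and 0.094 for Col1a2), and 1 other marker of the list rose. Of 15 lung epithelial markers 10 had a tested probe and 1 rose, Krt14 by 2.95 ± 0.36 (adjusted p = 0.012, and 0.060 with slide as a block), while the other 9 tested had a change below 0, the median was -0.16, and Epcam, Cldn4, Nkx2-1 and Ocln were well above background on no array. The epithelial sum was 36.8 to 65.0 on the Mmp19 KO arrays and 45.5 to 60.6 on the WT arrays, so the ranges overlapped. Of 9 macrophage markers with a probe 4 were tested and 0 passed in limma, 1 of them (Lyz2, with a change of 1.02 ± 0.32, adjusted p = 0.14) having an unadjusted p under 0.05, with sums of 45.2 to 109 on the Mmp19 KO arrays and 55.9 to 67.0 on the WT arrays. Of 10 endothelial markers 5 were tested and 0 passed in limma, 0 of them with an unadjusted p under 0.05, with sums of 3.77 to 5.51 on the Mmp19 KO arrays and 4.12 to 5.78 on the WT arrays; Emcn, Erg, Lyve1, Tek and Tie1 were well above background on no array. Of 9 smooth muscle and pericyte markers 8 were tested and 2 rose, Myh11 by 2.98 ± 0.35 (adjusted p = 0.011) and Des by 2.49 ± 0.44 (adjusted p = 0.032).

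**Figure D4:**
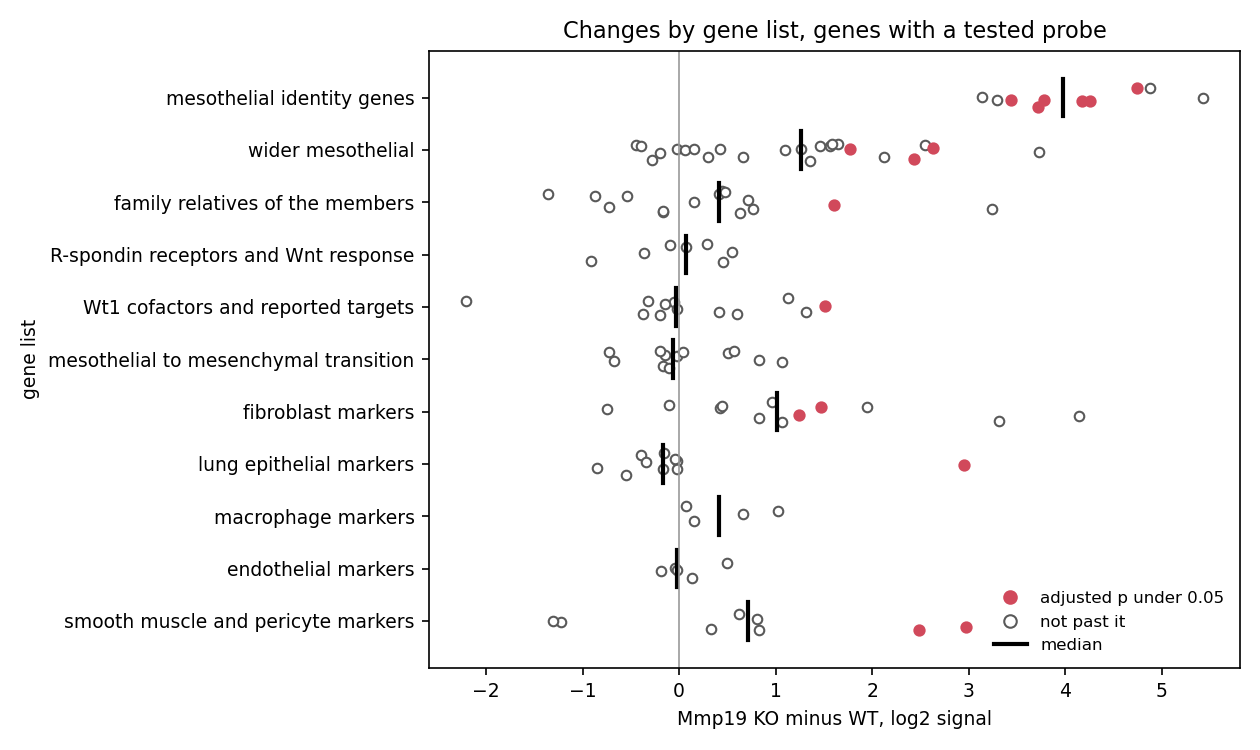
Log2 change, Mmp19 KO minus WT (horizontal axis), of each gene with a tested probe in 11 lists (vertical axis), with filled points past an adjusted p of 0.05, open points not past it, and a black tick at the list's median. The 10 mesothelial genes lie between 3.13 and 5.43, with a median of 3.98 beside 1.27 for the wider mesothelial list and 1.01 for the fibroblast markers.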

How the data were processed

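The deposited scanner tables hold spot intensities that, per the file headers, Agilent Feature Extraction 10.7.3.1 made; the submitters' processing notes name version 9.1. Per the labels' protocols, Cy3-labelled RNA was made from 0.5 µg of total RNA. A table deposited by the authors gives log2 values of 35844 probes, with column medians from 5.51 to 5.76; each column followed its own array's log2 signal at r of 0.996 or more, and its between-array normalization and centring are not stated, so it served as an alternative.

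From the processed intensity, control spots and outlier flags were left out, spots of 1 probe were averaged (55681 probes, 259 lacking a value on some array), and each array's 75th percentile was subtracted on the log2 scale. Probes that at least 1 genotype had well above background on each of its 3 arrays were tested (24214, 43.5%) by limma 3.58.1 (R 4.3.3; lmFit, eBayes, two-sided p). Benjamini-Hochberg adjustment at a threshold of 0.05 called 697 probes higher and 427 lower in Mmp19 KO; no spot was saturated. The scanner tables give accessions, and 26413 probes (47.4%) were named through RefSeq of GRCm38.p6; the array was designed on mm9, so no probe coordinates are given. The brightest tested probe stood for its gene. The fit was tested on simulated data first.

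The genes, lists and tests were chosen with earlier results of these data known. Besides the 10 genes and the label checks, the rule named per list the 4 largest changes past the threshold, or where none passed the 2 smallest p-values, and the 8 genes most like the 10. Within slides 1 to 3 the deviations from the genotype means had correlations of 0.096, -0.02 and 0.21 over all probes tested, not all above 0.1, so same-numbered arrays were not treated as pairs; over the 10 genes they were 0.29, 0.24 and 0.44. A slide is still a batch holding both genotypes, and fits with slide as a block stand beside the results. Where nothing says that samples were separate mice, p-values measure the spread between these samples. Alternatives changed background correction (normexp on median signals, offset 50), scaling, filter, prior, probe choice, block and the arrays used; raising signals below background and leaving out a slide were added after the data were seen.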

Additional observations from a re-analysis of the deposited data

How the results depend on the processing

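Each of the 10 genes had a positive change under every alternative in which it was tested, which for 6 of them leaves out the filter on all 6 arrays. The number of them past the threshold was 6, and it was 8 with normexp or with signals below background raised to the lowest signal well above it, 4 with quantile scaling, with either scaling to probes detected on all arrays and with the authors' deposited log2 values, and 6 with a trended prior or the replicate block (slide as a block). It was 10 without scaling, where the prior degrees of freedom became infinite and every probe shared 1 standard error, so that fit is left out of the counts given per gene, as is the choice of the probe with the smallest p, which repeats the main one. It was 1 with no filter on dim probes, where 55681 probes were adjusted over, 3 of the 4 tested with probes well above background on all 6 arrays, 1 to 8 without 1 array, 6 without slide 1, 5 without slide 2 and 0 without slide 3. Their median change ran from 3.25 to 4.57 without 1 array.

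The number of all probes past the threshold was 1124, and 633 with normexp, 113 with no filter, 650 with the filter on all 6 arrays, 385 with the replicate block, 108 to 1913 without 1 array, 148 without slide 1 and 0 without slide 3, where 2118 had an unadjusted p under 0.05 in limma. Higher and lower calls were 697 and 427, but 608 and 563 with the 75th percentile of detected probes, and lower calls outnumbered higher ones without WT replicate 2 (792 higher, 1121 lower) and without slide 2 (609 higher, 994 lower). For the wider mesothelial list the count was 3, and 5 without scaling, 0 with no filter, 0 to 5 without 1 array, 1 without slide 1 and 0 without slide 3 (6 at an unadjusted p under 0.05); its median of 1.27 was 0.57 with normexp and 0.54 without slide 2, and 0.80 to 1.46 without 1 array. The cause of these moves was not tested. Signal over background limits the WT values: 6 of the 10 genes were below the flag on at least 1 WT array, and their changes are least certain in size (Bnc1 4.18, and 2.34 with normexp; Lrrn4 4.26, and 2.41).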
